A study of Homo sapiens with 4 samples.

Results

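The long intergenic noncoding RNA genes described here were the genes whose symbol was LINC followed by digits only and whose mean TPM over 4 RNA-seq libraries was at least 1. TPM, transcripts scaled to a fixed total, is a length-corrected share of the RNA in a library. Of 39323 genes listed, 2157 had such a symbol. At 0 TPM in every library were 1241 of them, and 815 were above 0 with a mean under 1 TPM. The remaining 101 genes, 4.68% of the LINC symbols, are the members, and they were among 12985 genes of any kind that averaged 1 TPM or more, called the tested genes.

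Both cell lines used, RD and JR1, are established human lines of rhabdomyosarcoma without a PAX fusion gene. RD was derived from a recurrent tumour and JR1 from a metastatic one. Each line had been infected with a lentivirus carrying a hairpin against SKP2 (shSKP2) or a scrambled, non-targeting hairpin (shSCR) and selected in puromycin, so that the control cells had undergone infection and selection as well. SKP2 is the substrate-recognition subunit of a ubiquitin ligase that marks CDK inhibitors for degradation. Every group was 1 library with a single hairpin, so no value has a replicate error and no test was run. A fit that takes both lines as repeats of the knockdown would rest on 1 residual degree of freedom and was not made. A difference between libraries can therefore not be told apart from the variation between cultures. SKP2 itself stood at 92.84 TPM with shSCR and 7.4 with shSKP2 in RD, and at 46.47 and 2.72 in JR1, so it was lower in both libraries that carried the hairpin against it.

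Long intergenic noncoding RNAs are transcribed by RNA polymerase II away from, or beside, protein-coding genes, and most are capped, spliced and polyadenylated. They are usually less abundant and more restricted to a cell type than messenger RNAs. Some act in the nucleus on chromatin or on the transcription of neighbouring genes, some bind proteins or microRNAs in the cytoplasm, and for many no function is known. In muscle cells, noncoding RNAs of this kind have been tied to the timing of differentiation, the best known being LINCMD1, which binds microRNAs that target muscle transcription factors.

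The promoters of 70 members stood in the RefSeq table of promoter windows, which reach from 250 bases before to 50 after the start site (GRCh38.p14). Windows of 4 genes are shown because the results below turn on these genes. The first is that of LINC00667, at chr18:5237850-5238149 on the plus strand. LINC00526 begins on the opposite strand in the same window, 71 bases from the start of LINC00667, and the capitals mark the bases between both start sites.
LINC00667: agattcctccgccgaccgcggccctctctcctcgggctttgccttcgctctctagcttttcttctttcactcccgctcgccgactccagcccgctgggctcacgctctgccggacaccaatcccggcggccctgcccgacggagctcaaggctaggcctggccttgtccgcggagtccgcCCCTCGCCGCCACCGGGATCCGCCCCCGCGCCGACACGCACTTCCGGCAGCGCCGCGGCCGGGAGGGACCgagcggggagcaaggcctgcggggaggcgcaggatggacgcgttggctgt
The next is that of LINC01116, at chr2:176637560-176637859 on the minus strand. By the deposited coordinates LINC01117 starts 180 bases away on the other strand, and the capitals mark the bases between these start sites.
LINC01116: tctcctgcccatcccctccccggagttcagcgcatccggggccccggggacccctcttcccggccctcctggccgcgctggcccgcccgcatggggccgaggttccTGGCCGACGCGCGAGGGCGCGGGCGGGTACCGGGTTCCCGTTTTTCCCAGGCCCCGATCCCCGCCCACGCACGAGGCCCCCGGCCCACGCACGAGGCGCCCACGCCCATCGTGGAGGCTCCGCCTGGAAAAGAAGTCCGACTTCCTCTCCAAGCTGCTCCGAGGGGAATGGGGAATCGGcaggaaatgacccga
The window of LINC01847 lies at chr5:159871335-159871634 on the minus strand, with the letters TATAAA in capitals.
LINC01847: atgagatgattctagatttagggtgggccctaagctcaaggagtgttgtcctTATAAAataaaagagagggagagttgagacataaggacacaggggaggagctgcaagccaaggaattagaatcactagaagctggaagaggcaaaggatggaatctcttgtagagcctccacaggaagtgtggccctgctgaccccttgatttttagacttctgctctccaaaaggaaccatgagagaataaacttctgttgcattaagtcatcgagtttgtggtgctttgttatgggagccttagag
The window of LINC00221 lies at chr14:106482189-106482488 on the plus strand, with the letters CAGCTG in capitals.
LINC00221: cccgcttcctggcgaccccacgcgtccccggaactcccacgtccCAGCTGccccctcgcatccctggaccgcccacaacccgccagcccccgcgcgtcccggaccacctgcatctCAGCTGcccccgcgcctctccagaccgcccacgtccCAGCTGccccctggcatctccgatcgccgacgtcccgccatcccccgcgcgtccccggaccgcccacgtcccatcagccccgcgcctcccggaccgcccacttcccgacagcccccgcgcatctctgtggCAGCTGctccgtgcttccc
CAGCTG, which reads the same on both strands, is a core to which MYOD binds in muscle promoters. It occurred 4 times in the window of LINC00221, and the windows of LINC00667, LINC01116 and LINC01847 did not hold it. Among other members, LINC00674, LINC01173, LINC01278, LINC01372, LINC01686, LINC01943 and LINC02870 held it 1 time each. Of the 70 member windows, 22 (31.4%) held CAGCTG at least 1 time, against 17.2% of 10090 tested genes with a window and 17.7% of 27305 genes in the table. The related letters CAGGTG stood in 27.1% of member windows, 17% of those of tested genes and 20.6% of all. For the general form CANNTG, where N is any base, the shares were 72.9%, 59.6% and 68.9%. The windows of LINC00221 and of LINC00526 each held CAGGTG 1 time. TATAAA, searched on both strands, stood in 9 member windows (12.9%), in 5.68% of those of tested genes and in 12% of all. In LINC01847 it began 198 bases before the start site. The median GC content was 59.8% in the member windows and 65.3% in those of the tested genes. A match is a description of letters and not of a bound site.

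The members were low in abundance. Their mean ran from 1 to 17.53 TPM, with 6 members at 10 TPM or more, 21 from 5 to 10, 35 from 2 to 5 and 39 under 2. The median member was at 2.55 TPM in RD shSCR, 2.24 in RD shSKP2, 2.74 in JR1 shSCR and 2.3 in JR1 shSKP2. In the same libraries the median tested protein-coding gene was at 12.54, 9.65, 10.32 and 8.425 TPM. All members together took between 0.0354% and 0.0422% of the TPM of a library. In 66 members every library was at 1 TPM or more, and 100 were above 0 in every library. The exception was LINC01173, listed at 0 in both RD libraries.

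The 6 most abundant members were LINC02893, LINC02802, LINC00958, LINC00839, LINC00665 and LINC00667. LINC02893, which lies 60945 bases from the Hedgehog co-receptor gene GAS1 on chromosome 9, was at 11.72 TPM in RD shSCR, 10.13 in RD shSKP2, 25.41 in JR1 shSCR and 22.85 in JR1 shSKP2. Its JR1 values were both above its RD values, and within each line the libraries were close. LINC00958, reported as raised in several carcinomas, was at 15.34 and 16.09 TPM in RD shSCR and shSKP2 and at 16.06 and 11.56 in the JR1 pair. LINC00839 was at 13.09 and 12.14 TPM in the RD pair and at 17.23 and 11.17 in the JR1 pair. LINC00665, a spliced transcript near a cluster of zinc finger genes on chromosome 19, was at 16.56 and 10.98 TPM in the RD pair and at 10.94 and 8.04 in the JR1 pair. In each of the last pair of genes the shSKP2 library was the lower in both lines, by less than 1 on the log2 scale.

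The value of LINC02802 is uncertain. It was listed at 20.2 and 15.3 TPM in RD shSCR and shSKP2 and at 17.02 and 11.66 in JR1. Of its GENCODE transcript, 99.8% was matched at 95% identity or more, and 100% at best, in LSP1P5. This pseudogene lies elsewhere and itself averaged 8.062 TPM. Reads from such copies are divided between them by the estimate that makes the TPM. Of 93 members with a GENCODE transcript, 9 had at least 50% of it matched at 95% identity or more to a transcript at another place. Beside LINC02802 these were LINC00265, LINC00342, LINC00674, LINC00680, LINC00863, LINC00869, LINC01943 and LINC02887.

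**Figure D1:**
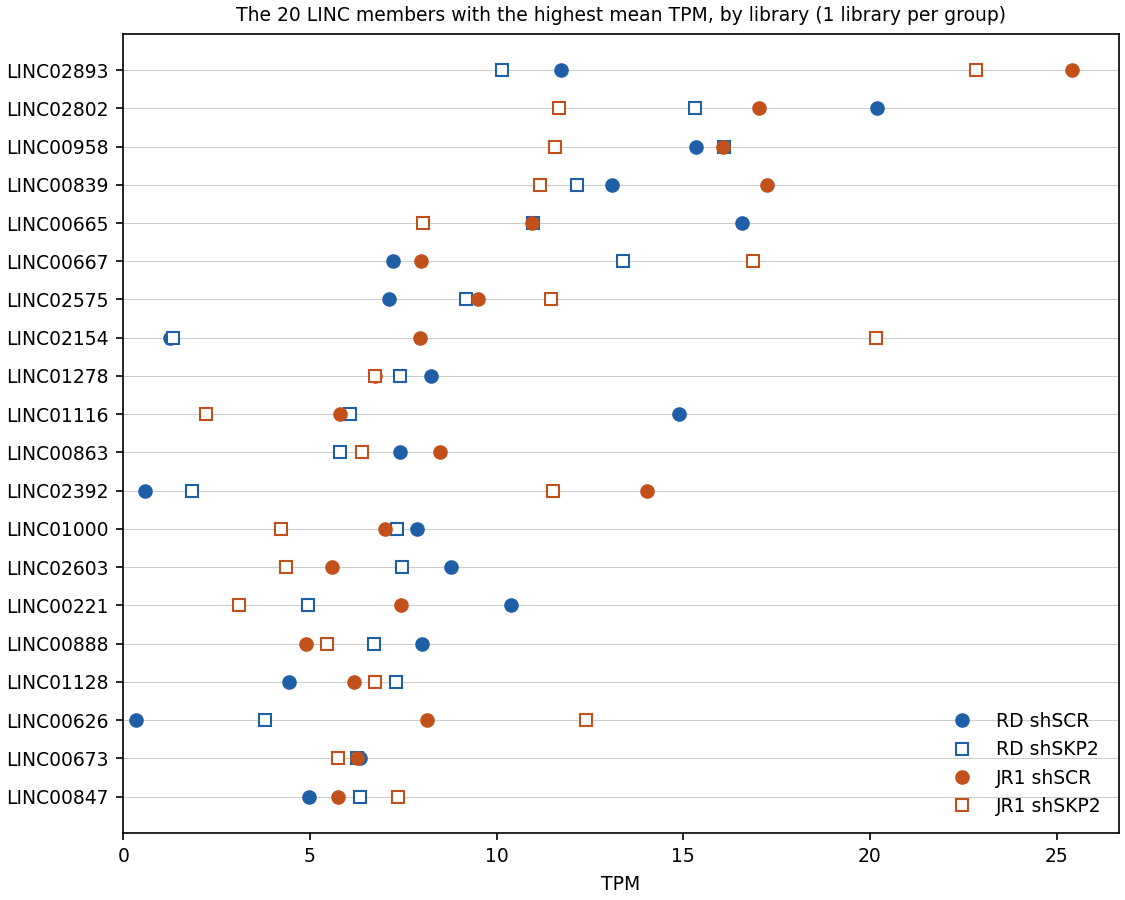
TPM (horizontal axis) of the 20 members with the highest mean, in rows. Filled circles are shSCR and open squares shSKP2 libraries, blue for RD and orange for JR1, with 1 library per group. LINC02893, LINC02575, LINC02154, LINC02392 and LINC00626 had both JR1 libraries above both RD libraries, and LINC00667, LINC01128 and LINC00847 had both shSKP2 libraries above both shSCR libraries.

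To compare the knockdown with its control, the change was computed in each line as the log2 ratio of TPM + 1 in shSKP2 over TPM + 1 in shSCR. A gene was said to have risen or fallen where the change was at least 1 in size. The added 1 TPM holds back the change of genes near 0, which bears on most members, since 61 of them stayed under 5 TPM in every library.

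Few members passed that limit. In RD 2 of 101 members rose, LINC01847 and LINC00626, and 2 fell, LINC00674 and LINC01116. Among all tested genes, 1.08% rose and 7.37% fell in RD. In JR1 3 members rose, LINC01847, LINC02154 and LINC00526, and 5 fell, LINC02454, LINC01116, LINC01943, LINC00221 and LINC01686. Among all tested genes, 1.78% rose and 9.05% fell in JR1. In both lines 1 member rose and 1 fell, where 0.539% of the tested genes rose and 4.79% fell in both. No member passed the limit in opposite directions. The other 91 members stayed within it in both lines, and 53 of them changed by less than 0.5 in both.

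The median change of the members was -0.03 in RD, against -0.27 for all tested genes and -0.29 for tested protein-coding genes. In JR1 it was -0.22, beside -0.21 and -0.22. Over the tested genes in the members' own range of abundance, RD had a median of -0.24 and JR1 one of -0.20. These genes were not matched in abundance, with a median mean of 5.678 TPM against 2.603 for the members. The quartiles of the members lay at -0.31 and 0.29 in RD, and at -0.45 and 0.25 in JR1. The members thus sat above the tested genes by their median in RD and level with them in JR1. The added 1 TPM draws changes of low genes towards 0, and its part in this difference was not tested.

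By sign alone, 28 members (27.7%) were higher and 47 (46.5%) lower with shSKP2 in both lines, and 25 went opposite ways. Of all tested genes, 17% were higher and 61.1% lower in both lines. Over the 101 members the changes in RD and in JR1, which share no library, had a Pearson correlation of 0.624 and a Spearman correlation of 0.615. Over all tested genes these were 0.617 and 0.702. The correlations run across genes, which are not independent replicates.

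The share of TPM held by short structural RNA genes (signal recognition particle, nuclear, nucleolar and transfer RNAs and the like) moved with the knockdown. In RD it was 50.1% with shSCR and 62.3% with shSKP2, and in JR1 57.1% and 64.9%. Because TPM adds up to a fixed total, a larger share for these genes lowers all the others. With these genes removed and the rest rescaled, 9 of the 101 members rose and 1 fell in RD, 10 rose and 4 fell in JR1, and 4 rose and 1 fell in both lines. Among the 14733 genes that averaged 1 TPM or more after rescaling, 3.76% rose and 3.41% fell in RD, 4.71% rose and 6.73% fell in JR1, and 1.72% rose and 2.4% fell in both. The median change of the 101 members became 0.29 in RD and -0.02 in JR1, and that of all genes tested after rescaling 0.10 and 0.03. The 101 members were chosen on the deposited TPM, so the sets are unlike. Of the 175 LINC genes tested after rescaling, 15 (8.57%) rose and 5 (2.86%) fell in RD. In JR1 17 (9.71%) of these rose and 10 (5.71%) fell, and 5 rose and 2 fell in both lines. Their medians were 0.26 in RD and 0.04 in JR1. After rescaling LINC01116 no longer passed the limit in either line, and LINC00674 was the member that fell in both.

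**Figure D2:**
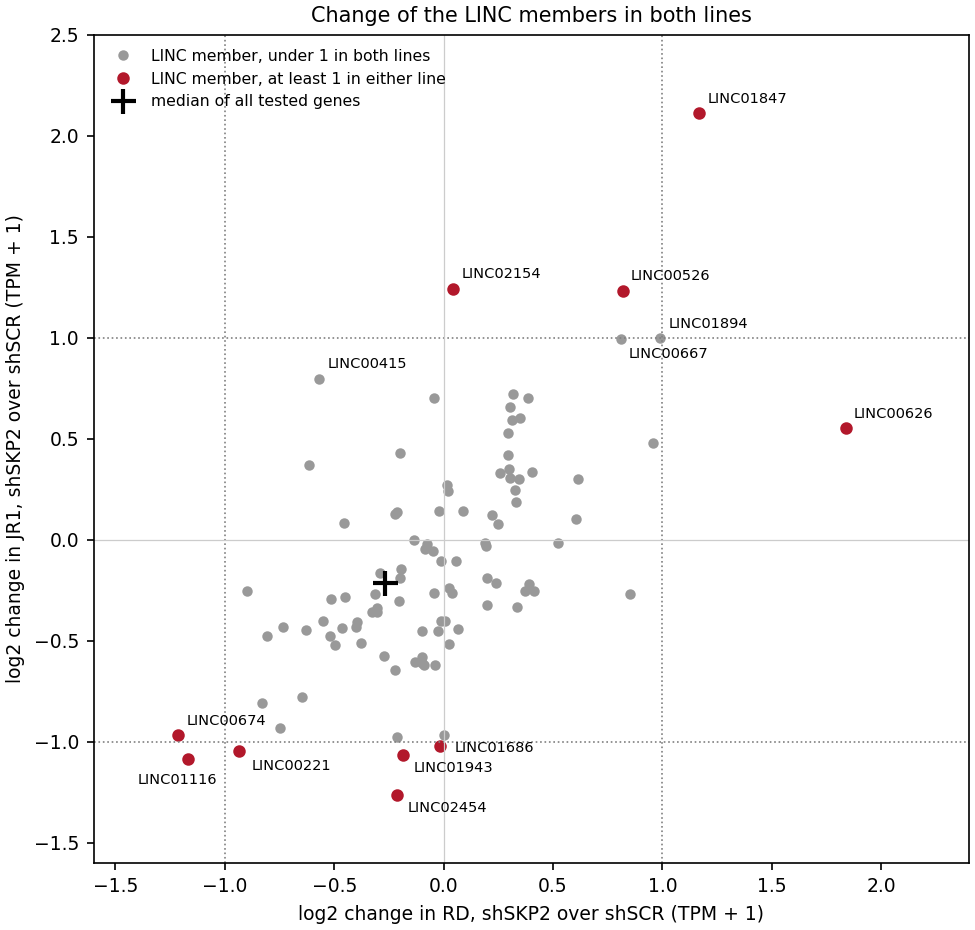
Change of each of the 101 members in RD (horizontal) and JR1 (vertical), as the log2 ratio of TPM + 1 in shSKP2 over shSCR. Red points reached 1 in size in at least 1 line, dotted lines mark that limit and the cross marks the median of all tested genes (-0.27, -0.21). LINC01847 stands at the upper right and LINC01116 at the lower left, past the limit in both lines.

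LINC01847 was the member that rose in both lines. RD had 0.02 TPM with shSCR and 1.29 with shSKP2, and JR1 had 0.25 and 4.4. Both control libraries were close to 0 and both knockdown libraries were above 1 TPM. Its mean of 1.49 TPM was thus reached through the knockdown libraries alone, and its rise partly follows from the rule that made it a member. The change was 1.17 in RD and 2.11 in JR1. This minus-strand gene at chr5:159776772-159871384 has 8 exons in its GENCODE transcript, and its nearest protein-coding gene is ADRA1B, an adrenergic receptor gene 45098 bases away. ADRA1B changed by 0.85 in RD and 0.32 in JR1, within the limit.

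LINC00526 and LINC00667 form a divergent pair on chromosome 18. LINC00526, a single-exon minus-strand gene, was at 1.62 and 3.62 TPM in RD shSCR and shSKP2 and at 2.28 and 6.71 in the JR1 pair. LINC00667, a spliced plus-strand gene and the sixth most abundant member, was at 7.21 and 13.39 TPM in the RD pair and at 7.97 and 16.86 in the JR1 pair. For both genes, both knockdown libraries were above both control libraries. The change of LINC00526 was 0.82 in RD and 1.23 in JR1, and that of LINC00667 was 0.81 and 0.99. With the structural RNA genes removed both genes passed the limit in both lines, LINC00526 by 1.32 and 1.67 and LINC00667 by 1.24 and 1.32. The nearest protein-coding gene, AKAIN1, averaged 0.0475 TPM.

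LINC01894, at chr18:24932774-24987979 on the minus strand, lay just inside the limit in both lines. It was at 1.43 and 3.83 TPM in RD shSCR and shSKP2 and at 2.69 and 6.36 in the JR1 pair, changes of 0.991 and 0.996. After removal of the structural RNA genes the changes were 1.53 and 1.39. Its neighbour ZNF521, a zinc finger gene 73945 bases away, changed by -0.57 in RD and 0.01 in JR1.

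LINC00626 and LINC02154 passed the limit in a single line. LINC00626 was at 0.34 and 3.79 TPM in RD shSCR and shSKP2, a change of 1.84 and the largest of any member in RD. In JR1 it was at 8.14 and 12.4 TPM, a change of 0.55. LINC02154, on the X chromosome, was at 1.25 and 1.32 TPM in the RD pair, and at 7.94 and 20.15 in the JR1 pair, a change of 0.04 in RD and 1.24 in JR1. Whether the change differed between the lines cannot be tested with 1 library per group. Among the 5 largest rises in RD were also LINC01372, from 0.67 to 2.24 TPM (0.96), and LINC02392, from 0.57 to 1.83 TPM (0.85).

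LINC01116 was the member that fell in both lines. RD had 14.89 TPM with shSCR and 6.07 with shSKP2, and JR1 had 5.81 and 2.21, a change of -1.17 in the first line and -1.09 in the second. Each knockdown library was below its own control, while RD shSKP2 was still above JR1 shSCR. With the structural RNA genes removed, the changes were -0.85 and -0.995. The minus-strand gene at chr2:176629581-176637574 has 5 exons in its GENCODE transcript. LINC01117, which starts on the other strand 180 bases away, averaged under 1 TPM and is not a member. It was at 2.11 and 0.3 TPM in RD shSCR and shSKP2 and at 0.32 and 0.28 in the JR1 pair.

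LINC00674 fell in RD, from 5.93 to 1.99 TPM (-1.21), and went from 2.74 to 0.91 TPM in JR1 (-0.97). Its GENCODE transcript is only 160 bases long, and 65.6% of it matched the transcript of SMURF2, a ubiquitin ligase gene averaging 13.26 TPM, so its value is uncertain. LINC00221, the gene with 4 CAGCTG letters in its window, was at 10.39 and 4.95 TPM in RD shSCR and shSKP2 and at 7.44 and 3.09 in the JR1 pair. It fell in JR1 (-1.05) and lay just inside the limit in RD (-0.94), and with the structural RNA genes removed neither line passed it (-0.90 in JR1 and -0.63 in RD). LINC01003, a single-exon gene 27482 bases from the histone methyltransferase gene KMT2C, was at 4.07 and 1.85 TPM in the RD pair and at 4.4 and 2.08 in the JR1 pair, changes of -0.83 and -0.81. All 3 genes were lower in each knockdown library than in its control.

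LINC02454, LINC01943 and LINC01686 fell in JR1 and were nearly level in RD. LINC02454 went from 9.98 to 3.57 TPM in JR1 (-1.26) and from 1.72 to 1.35 in RD (-0.21). LINC01943 went from 3.02 to 0.92 TPM in JR1 (-1.07) and from 1.15 to 0.89 in RD (-0.19). Its whole GENCODE transcript matched that of SOCAR at 99.11% identity at best, which makes its value uncertain. LINC01686 went from 8.49 to 3.68 TPM in JR1 (-1.02) and was at 6.08 and 5.99 TPM in RD (-0.02). With the structural RNA genes removed its change in JR1 was -0.86, inside the limit, while LINC02454 (-1.12) and LINC01943 (-1.15) still passed it. Centred on the median of all tested genes, LINC00674 in RD (-0.94) and LINC00221 (-0.83), LINC01943 (-0.85) and LINC01686 (-0.81) in JR1 were inside the limit. LINC01686 lies 10751 bases from RGS16, which encodes a regulator of G-protein signalling and changed by 0.17 in RD and -0.02 in JR1. LINC00852, which overlaps the ghrelin gene GHRL, was among the 5 largest decreases in RD, from 2.32 to 0.78 TPM (-0.90), and went from 1.37 to 0.99 in JR1 (-0.25).

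**Figure D3:**
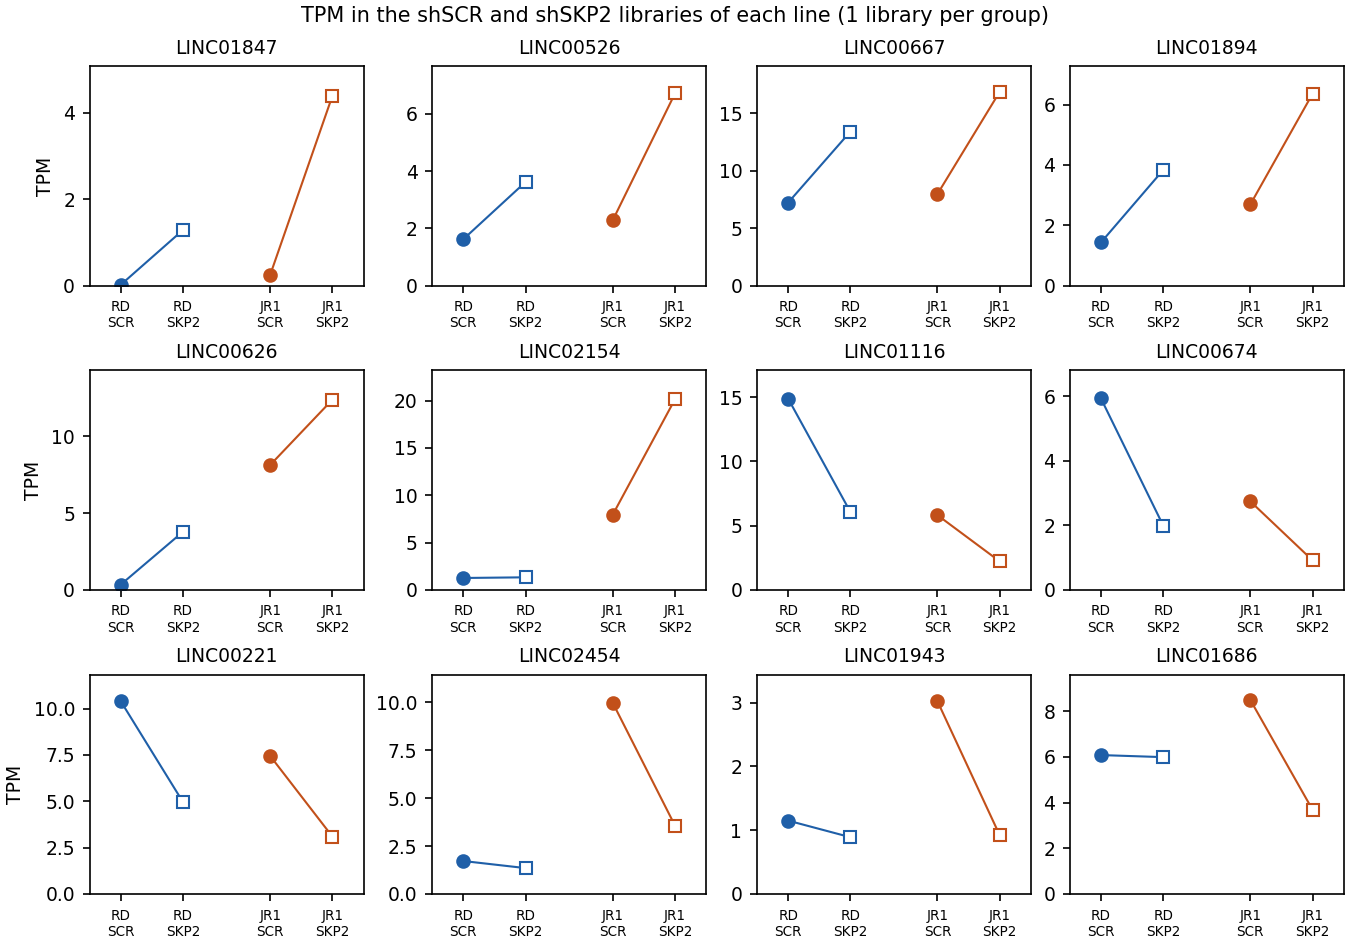
TPM of 12 members in the 4 libraries, 1 panel per gene with its own vertical axis from 0. Filled circles are shSCR and open squares shSKP2, blue for RD and orange for JR1, and lines join the pair of a line. LINC01847, LINC00526, LINC00667 and LINC01894 were higher with shSKP2 in both lines, and LINC01116, LINC00674 and LINC00221 lower in both.

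The markers of muscle cells were present in all libraries, 9 of 10 myogenic genes being tested and MYF5 listed at 0. Their summed TPM was 473.5 and 597.6 in RD shSCR and shSKP2 and 623.2 and 822.3 in the JR1 pair. In each line 0 of the list rose and 2 fell, PAX7 (-1.43 in both) and FGFR4 (-1.89 in RD and -1.39 in JR1). The largest part of each sum was CHRNA1, at 196.34 and 313.84 TPM in RD and 284.19 and 424.83 in JR1. MYOG was higher with shSKP2, just inside the limit, at 31.57 and 58.39 TPM in RD (0.87) and 53.97 and 107.18 in JR1 (0.98). With the structural RNA genes removed MYOG rose in both lines (1.28 and 1.27) and CHRNA1 in RD (1.08). PAX7 (-1.19 and -1.51) and FGFR4 (-1.54 and -1.13) still fell in both. The 6 fibroblast genes, of which COL1A1 and THY1 fell in both lines, summed to 342.6 and 89.8 TPM in RD and to 459.9 and 82.41 in JR1. Of 9 genes taken as markers of the HEK293T line that packages lentivirus, 4 were tested and their list summed to 123.7 and 189.7 TPM in RD and 13.9 and 28.64 in JR1, mostly NEFL and NEFM in RD and INA in JR1. PAX2 was at 8.28 and 6.99 TPM in RD and at 0.58 and 1.46 in JR1. PAX8, LHX1, NR0B1 and WT1 stayed under 0.2 TPM. The 4 immune and 3 endothelial genes each summed to less than 0.5 TPM in every library. The 4 epithelial genes summed to 209.4 and 170.7 TPM in RD and to 84.03 and 88.54 in JR1, nearly all of it KRT18. These sums moved with the knockdown beside the members, and their part in the results was not tested.

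The lines differed in a set of members. In the control libraries 3 members (2.97%) were at least 1 on the log2 scale higher in RD and 12 (11.9%) higher in JR1. Of all tested genes 6.5% were higher in RD and 3.45% higher in JR1. In the shSKP2 libraries 5 members (4.95%) were higher in RD and 12 in JR1, where 5.39% and 2.7% of the tested genes were. In both conditions 3 members were higher in RD (2.97%, against 3.4% of tested genes) and 9 higher in JR1 (8.91%, against 1.71%). LINC00601, LINC01173, LINC01915 and LINC02870, among the latter, were under 1 TPM in both RD libraries. They met the mean of 1 TPM through JR1 alone, so their difference partly follows from the rule. The rule weighs more on the members, whose median mean was 2.603 TPM, than on all tested genes, at 9.36. These shares are therefore a description only. The same holds for the shares with the structural RNA genes removed. In the control libraries 5.08% of all genes then tested were higher in RD and 5.72% higher in JR1. Of the 175 LINC genes then tested, 3.43% and 15.4% were. In the shSKP2 libraries the shares were 6.33% and 4.3% of all genes, and 5.14% and 15.4% of the LINC genes.

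The members higher in RD in both conditions were LINC01116, LINC01508 and LINC02381. LINC01508 was at 4.76 and 3.21 TPM in RD shSCR and shSKP2 and at 1.06 and 0.69 in the JR1 pair, a log2 ratio of RD over JR1 of 1.48 in shSCR and 1.32 in shSKP2. LINC02381, which overlaps the span of the DNA glycosylase gene SMUG1, was at 3.89 and 3 TPM in RD and at 0.77 and 0.58 in JR1, a ratio of 1.47 and 1.34. LINC01116 had a ratio of 1.22 and 1.14, which in shSCR became 1.08 with the structural RNA genes removed and 0.99, under the limit, when centred on the median of all tested genes. Next in order, and under the limit, were LINC00674 (0.89 and 0.65) and LINC00944 (0.86 and 0.64).

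The members higher in JR1 in both conditions were LINC00601, LINC00626, LINC00882, LINC01173, LINC01915, LINC02154, LINC02392, LINC02870 and LINC02893. LINC02392 differed most in the control libraries, at 0.57 and 1.83 TPM in RD shSCR and shSKP2 and at 14.04 and 11.5 in the JR1 pair, a log2 ratio of RD over JR1 of -3.26 and -2.14. LINC00626 had a ratio of -2.77 and -1.48, and LINC02154 of -1.99 and -3.19. LINC01173, which was listed at 0 in both RD libraries, was at 5.36 and 2.25 TPM in JR1. LINC02870 was at 0.82 and 0.85 TPM in RD and at 5.24 and 4.28 in JR1, a ratio of -1.78 and -1.51. LINC02454 was past the limit in shSCR alone, with -2.01 there and -0.96 in shSKP2.

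**Figure D4:**
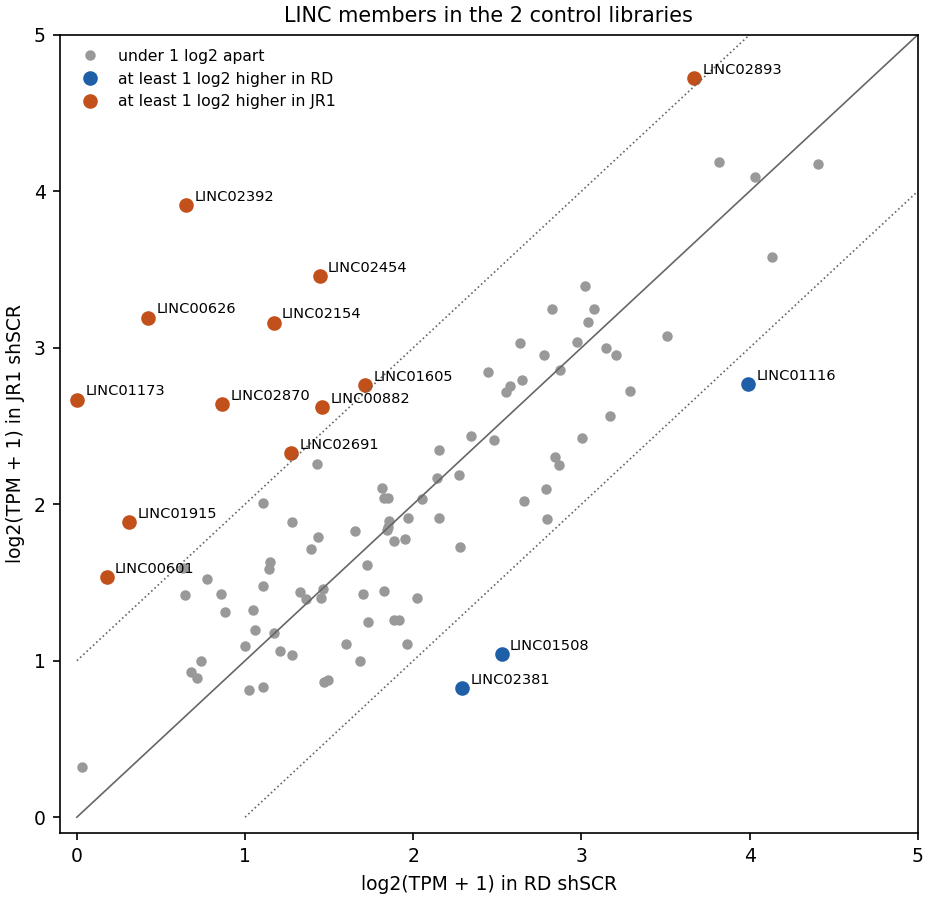
Level of each member as log2(TPM + 1) in RD shSCR (horizontal) and JR1 shSCR (vertical). The solid line marks equal levels and the dotted lines a difference of 1, past which 12 members lay on the JR1 side (orange) and 3 on the RD side (blue).

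Where the members lie in the genome was read from the deposited coordinates and the annotation. They were spread over 21 chromosomes, with 13 on chromosome 12, 11 on chromosome 1 and 8 on chromosome 2. Of 93 members with a GENCODE transcript, 16 had a single exon, 16 had 2 exons and 61 had 3 or more, and the median transcript length was 1568 bases. The span of 12 members overlapped that of a protein-coding gene, a further 20 lay within 5000 bases of one, and 19 lay over 100000 bases away. For members beside or inside other genes, reads of the neighbour could enter the value, since the strand setting of the counting is not given in the sources used here.

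In 9 members the start site faced away from that of a protein-coding gene within 5000 bases, an arrangement in which both genes may share a promoter. The partners were ZNF169, POFUT2, SETD1B, ARID2, PATZ1, UBE2J2, CAPN15, ZFP36L2 and SAMD11. In RD 5 of the 9 pairs changed with the same sign and in JR1 6 did, with a Pearson correlation of 0.43 and 0.50 and a Spearman correlation of 0.33 and 0.22 across the 9 pairs, given as a description. LINC01126 and ZFP36L2, which encodes an RNA-binding protein of messenger RNA decay, were both lower in both lines. LINC01126 was at 1.76 and 0.76 TPM in the RD pair and at 1.75 and 0.6 in the JR1 pair (-0.65 and -0.78), and ZFP36L2 was at 107.56 and 41.97 TPM in RD and at 60.81 and 30.38 in JR1 (-1.34 and -0.98). LINC01521 and the zinc finger gene PATZ1 had the same sign but changes of unlike size. LINC01521 was at 2.59 and 2.41 TPM in RD and at 2.57 and 2.52 in JR1 (-0.07 and -0.02), whereas PATZ1 was at 32.33 and 16.77 and at 16.69 and 6.6 TPM (-0.91 and -1.22).

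Pairs of LINC genes were seen as well. Beside LINC00526 and LINC00667, the members LINC00115 and LINC01128 on chromosome 1 start 69 bases apart on opposite strands. LINC00115 was at 2.25 and 2.46 TPM in RD shSCR and shSKP2 and at 1.69 and 1.97 in the JR1 pair, changes of 0.09 and 0.14. LINC01128 was at 4.45 and 7.3 TPM in RD and at 6.19 and 6.73 in JR1, changes of 0.61 and 0.10. In this pair all changes were upward and none passed the limit. With the structural RNA genes removed, LINC01128 passed it in RD (1.04) but not in JR1 (0.39). LINC00115 stayed inside it in both lines (0.45 and 0.42).

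The members were set beside other kinds of noncoding RNA gene. The 192 tested long noncoding RNA genes with LOC symbols had medians of -0.02 in the RD comparison and -0.17 in the JR1 one, and 49 tested divergent transcripts (symbols ending in DT) had medians of 0.01 and -0.04. Antisense genes by symbol, 226 tested, had medians of -0.11 and -0.16. Each of these medians lay above that of the tested protein-coding genes in the same line, whereas the members' median in JR1 matched it to 2 decimals (-0.22). With the structural RNA genes removed this did not hold for the antisense genes in JR1, whose median was 0.012 against 0.032. Under the same scaling the members' medians, over the 175 LINC genes then tested, were 0.26 and 0.04 and those of protein-coding genes 0.08 and 0.03. The kinds also differed in abundance. As deposited, the median mean was 1.69 TPM for LOC, 1.995 for divergent and 2.188 for antisense genes, against 10.43 for protein-coding genes. The added 1 TPM draws changes of low genes towards 0, and its part here was not tested.

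**Figure D5:**
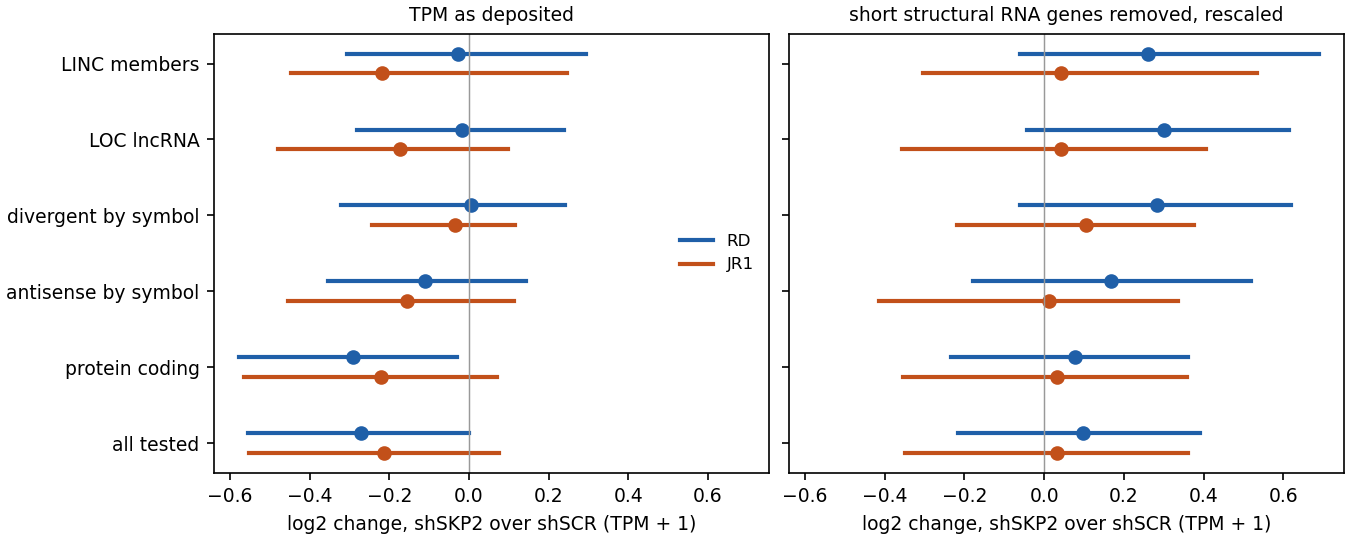
Median (points) and the range between the quartiles (lines) of the log2 change with shSKP2 by kind of gene, blue for RD and orange for JR1, over the genes averaging 1 TPM or more under each scaling. The left panel uses TPM as deposited and the right panel TPM rescaled without short structural RNA genes, where the LINC genes tested were 175 and their RD median was 0.26 in place of -0.03.

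A list of 40 well-known long noncoding RNAs without a LINC number was read beside the members. Of the 28 tested, 0 rose and 1 fell in RD, and 0 rose and 5 fell in JR1, with medians of -0.25 and -0.14. The shares of all tested genes were 1.08% risen and 7.37% fallen in RD, and 1.78% and 9.05% in JR1. MEG3, an imprinted RNA of chromosome 14, fell in both lines, with 38.95 and 13.83 TPM in RD (-1.43) and 47.4 and 20.3 in JR1 (-1.18). MALAT1, a nuclear speckle RNA, was at 106.88 and 96.77 TPM in RD (-0.14) and fell in JR1 from 82.29 to 40.4 (-1.01). CYTOR, MIR22HG and MIR100HG fell in JR1 as well (-1.22, -1.11 and -1.45) and stayed within the limit in RD. With the structural RNA genes removed, 0 of the 28 rose and 1 fell in RD and 3 rose and 2 fell in JR1, and the medians turned to 0.12 and 0.14. Under that scaling 3.76% of all genes tested rose and 3.41% fell in RD, and 4.71% rose and 6.73% fell in JR1. MEG3 then passed the limit in RD (-1.07) but not in JR1 (-0.92), and in JR1 MALAT1 (-0.73), CYTOR (-0.96) and MIR22HG (-0.87) no longer passed it, whereas DANCR (1.20), MIR503HG (1.09) and PCAT6 (1.03) rose and MIR100HG (-1.36) and HOTAIR (-1.04) fell. LINCMD1 was listed at 0 in both control libraries and at 0.56 TPM in RD shSKP2 and 0.51 in JR1 shSKP2, too low to be tested. Of 9 LINC symbols once given to genes for small proteins, 2 were listed and neither was tested.

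At the boundary of the rule, the members with the lowest means were LINC00472 at 1, LINC00342 at 1.032 and LINC01096 at 1.042 TPM. Just outside were LINC01137 at 0.9675, LINC01612 at 0.9575 and LINC00668 at 0.955 TPM. LINC00472, reported as low in aggressive breast tumours, was at 0.6 and 0.96 TPM in RD shSCR and shSKP2 and at 0.9 and 1.54 in the JR1 pair, changes of 0.29 and 0.42. LINC01096 was lower with shSKP2 in both lines (-0.33 and -0.36), and LINC00342 changed by 0.19 in RD and -0.03 in JR1.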

How the data were processed

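Poly-A RNA of 4 cultures, 1 per group, was sequenced from a directional kit. The authors aligned reads to GRCh38 with STAR 2.7.9a and estimated abundance with RSEM 1.3.2, and the deposited values are TPM per gene, which correct for length and sum to a fixed total. TPM keeps no read number, so the depth is unknown. Gene models came from GENCODE release 44 and RefSeq GRCh38.p14. Changes were log2 ratios of TPM + 1, computed with pandas 2.3.3 over genes averaging 1 TPM or more. They were checked on simulated data with known folds put into genes of at least 10 TPM in shSCR. Only 6 members averaged that much, so the check does not cover the range of most members. Copies were searched with blastn 2.17.0. Structural RNA genes, 2987 by symbol, were removed in one alternative.

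The members, the lists and the limits were chosen with earlier results of these data known. Genes were named by rule: changes of at least 1 in both lines in the same or in opposite directions, the 10 highest means, the 5 largest rises and falls per line, the 5 most different between lines each way by the smaller difference of both conditions, and the 3 nearest each side of the threshold. Outside it, members past the limit, divergent pairs with their partners and copies were named after their values were seen.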

Additional observations from a re-analysis of the deposited data

Results flagged for a closer look

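LINC00415, a member 260 bases from SHISA2, moved in opposite directions in the lines, by -0.57 in RD and 0.80 in JR1 on the log2 scale of TPM + 1, and was the single member with both changes over 0.5 in size and of opposite sign. It was at 1.03 and 0.37 TPM in RD shSCR and shSKP2 and at 0.76 and 2.06 in the JR1 pair. The difference between the lines was not tested, since each group is 1 library.

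LINC01612 was outside the members, with a mean of 0.9575 TPM, and was the single LINC gene under the threshold that rose in both lines. It was at 0.24 and 1.91 TPM in RD shSCR and shSKP2 and at 0.05 and 1.63 in the JR1 pair, changes of 1.23 and 1.32. Both knockdown libraries were above both control libraries.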

How the results depend on the processing

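Main counts were 2 members that rose and 2 that fell in RD, 3 and 5 in JR1, 1 and 1 in both lines, and 3 higher in RD and 12 higher in JR1 in shSCR. With 0.1 TPM added, they were 7 and 9 in RD, 9 and 13 in JR1, 3 and 6 in both lines and 8 higher in RD, with medians of -0.047 in RD and -0.30 in JR1. Centred on the median of all tested genes, they were 7 and 0 in RD, 6 and 1 in JR1 and 4 and 0 in both lines, with medians of 0.24 and -0.0042. With structural RNA genes removed, 9 rose and 1 fell in RD, 10 rose in JR1 and 4 rose in both lines, with medians of 0.29 and -0.016. At a minimum mean of 5 TPM, which left 27 members, 1 rose and 1 fell in RD, 1 and 3 in JR1, 0 rose in both lines, and 1 was higher in RD and 4 in JR1, with medians of -0.043 and -0.15. Over all 916 LINC genes above 0 TPM, 7 fell in RD, 7 rose and 8 fell in JR1, 2 rose in both lines and 6 were higher in RD, with medians of 0 in both lines. At a limit of 1.5-fold, 9 and 11 did in RD, 12 and 16 in JR1, 4 and 6 in both lines, and 15 were higher in RD. The other counts stayed within 1.5 times the main count. Shares of all tested genes are given above only for the main setting and with structural RNA genes removed. They were not computed for the other settings. The counts under those settings can therefore not be set against a share and are a description only.

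LINC01847 rose in both lines under every setting except the minimum of 5 TPM, which removes it. Since it became a member through its knockdown libraries, this is no separate support for its rise. LINC01116 fell in both lines with 0.1 TPM added but not when centred (-0.90 and -0.87) nor with structural RNA genes removed. Of 93 values of named members, 16, 15 and 13 crossed the limit under the first 3 settings and none that was past it changed sign. No replicate could be left out, since each group has 1 library, and a fit over the lines as pairs was not made. The depth is unknown, so changes of members near 1 TPM have no counting error here.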

Other observations

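Of the 815 LINC genes above 0 TPM with a mean under 1 TPM, 35 reached 1 TPM in at least 1 library. LINC01063 was at 1.36 TPM in RD shSCR and 0.99 in JR1 shSCR and was listed at 0 in both shSKP2 libraries. LINC01515 was at 1.34 and 0.1 TPM in the RD pair and at 0.71 and 0.18 in the JR1 pair. LINC01705 was listed at 0 in both shSCR libraries and was at 0.27 TPM in RD shSKP2 and 1.32 in JR1 shSKP2. LINC01882 moved apart, with 0.17 and 0.87 TPM in the RD pair and 2.19 and 0.35 in the JR1 pair. These genes were chosen after their values were seen, and each rests on 1 library per group.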
